A study of Mus musculus with 15 samples.

Results

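Medulloblastoma cells (MB) were compared with granule neuron precursors taken at postnatal day 7 (P7), using the gene counts of 6 of the series' 15 RNA-seq libraries. Libraries were chosen by sample title: 3 of MB and 3 of P7. Of 15259 genes tested over all 15 libraries, the 14446 on autosomes are described; another 5077 autosomal genes had too few counts to be tested. Per the labels, the P7 cells came from wild-type mouse cerebellum and the MB cells from cerebellum of mice that were Ptch1 heterozygous. The labels give no age for the tumours and do not say which Ptch1 allele was used. They do not say whether replicates were separate animals, so p-values measure the spread between libraries, which the gene tests pool over all 15. Both kinds of cell were purified on Percoll, and poly(A) RNA was sequenced. The 3 other groups were precursors at E15.5 (Math1-GFP), P1 and P14 (both wild type). Their libraries entered the low-count filter, the scaling and the spread of every gene test, and their levels are given only where named. Genotype, age and tumour state change together here and cannot be told apart.

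Granule neuron precursors divide in the outer layer of the young cerebellum under Sonic hedgehog (Shh), a ligand secreted by Purkinje cells. Ptch1 is the Shh receptor and restrains Smo, the membrane protein that starts the signal; without that restraint, Gli transcription factors switch on target genes, Gli1 and Ptch1 among them, and cells divide. Granule precursors normally leave the cell cycle and mature into granule neurons, and loss of Ptch1 in this lineage is a known route to medulloblastoma, a malignant brain tumour.

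The 6 libraries held 25594530 to 42864857 counts in genes, 39.5% to 55.4% of the records in each count file, and 16418 to 16978 genes with a count. MB replicate 1 stood apart from the other tumours: 95 genes were at least 4-fold above and 193 at least 4-fold below both of them, against 5 to 12 for MB replicates 2 and 3 and 1 to 23 for the P7 libraries (genes reaching 5 CPM, counts scaled to library size, in the group). The correlation of log2 CPM over genes was 0.955 and 0.951 between MB replicate 1 and the others and 0.989 between MB replicates 2 and 3. Counts in the gene table and in the table of reads per transcript were also set side by side for 12000 genes. In 58 of them, MB replicates 2 and 3 on one side and MB replicate 1 with all P7 libraries on the other differed in that ratio by a gap of over 0.5 on the log2 scale, and 28 of the 58 were called. Values are CPM scaled by TMM, given as mean ± SD over 3 libraries, and changes are log2 fold changes of MB over P7 with their SE from edgeR's quasi-likelihood fit. A gene was called at a Benjamini-Hochberg adjusted p (FDR) under 0.05 over all tested genes.

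The tumour cells differed from P7 precursors at 5019 of the 14446 genes (34.7%). Of these, 2019 genes were higher in MB (14% of those tested) and 3000 were lower (20.8%), and 1045 (7.23%) and 2518 (17.4%) also passed a fitted fold of 2. A change of at least 4-fold was seen in 391 genes that rose and 1481 that fell, so falls outnumbered rises among the large changes. Every tumour was above every P7 library at 2601 genes (18.0%) and below at 3472 (24.0%). The median change over all genes was 0.02. Higher calls made up 40.2% of the calls, and 50.4% once trends with GC content and gene length had been removed, a step chosen after seeing the data. Each count of called list members below is over the members that passed the filter on low counts, and is read against 14% and 20.8%. The plot of called members by list shows the bars of Shh targets, cell cycle genes and interferon genes reaching past the background line on the right, and those of maturation, oncofetal, Igf, Wnt, glycolysis and Bmp genes past it on the left, among others.

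**Figure D1:**
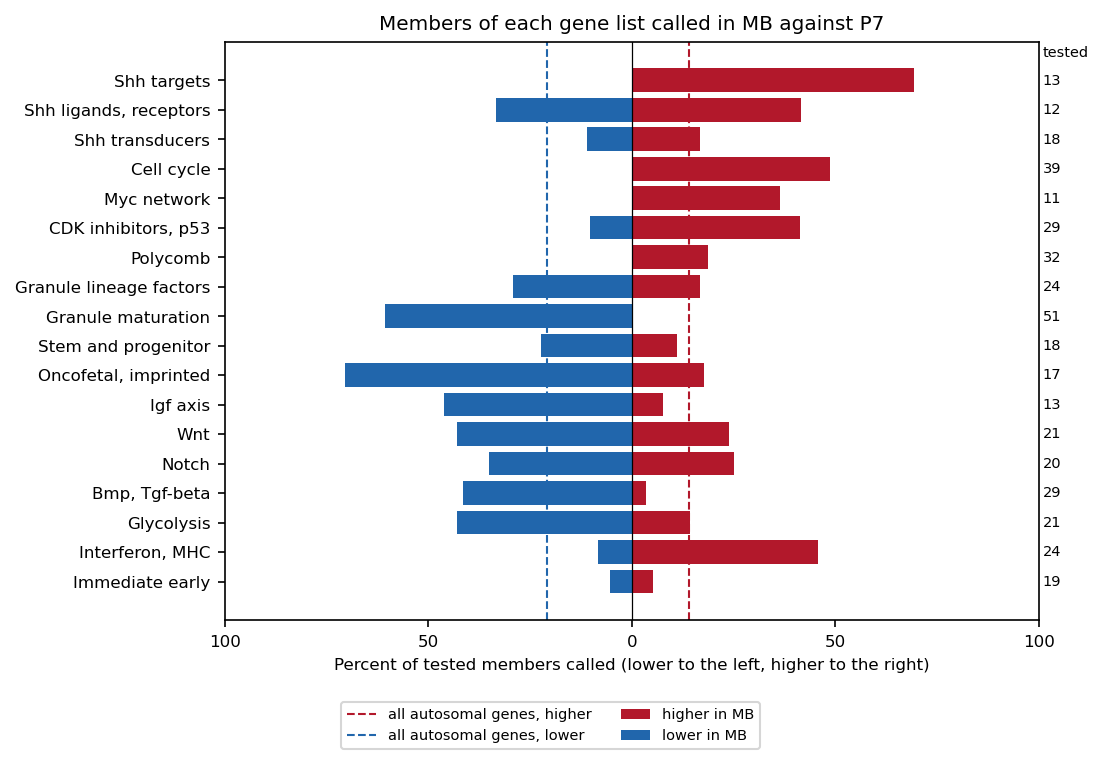
Percent of the tested members of each gene list called higher (red, to the right) or lower (blue, to the left) in MB against P7 at an FDR under 0.05. Dashed lines give the same share over all 14446 autosomal genes (14% higher, 20.8% lower), and the number of members tested is at the right.

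Ptch1, the gene named in the tumour genotype (chromosome 13), was at 202, 341 and 349 CPM in MB replicates 1 to 3 and 265, 252 and 340.1 CPM in the P7 libraries. The groups overlapped, and the change of 0.06 ± 0.28 was not called (FDR 0.902). The gene total cannot separate the alleles. Reads over 2 annotated transcripts at opposite ends of the gene differed in their proportion. A transcript over the upstream end (ENSMUST00000170763) had 575, 1289 and 757 reads in MB and 1331, 1270 and 1149 at P7. One over the downstream end (ENSMUST00000169233) had 2439, 6749 and 4545 in MB and 4061, 3645 and 3488 at P7. Upstream reads per downstream read were 0.236, 0.191 and 0.167 in MB and 0.328, 0.348 and 0.329 at P7, so every tumour was below every P7 library. The means were 0.198 ± 0.035 and 0.335 ± 0.011, with an exact two-sided permutation p of 0.1, the smallest that 3 against 3 can give. This ratio was chosen after the reads had been seen, so its p-value carries no independent weight. RNA integrity and read coverage along transcripts were not examined, and the cause of the difference was not tested.

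Target genes of Shh signalling were higher in the tumours: 9 of 13 rose, none fell, and their median change was 1.21 against 0.02 over all genes. Without MB replicate 1 the counts were the same. Gli1, the transcription factor that is both an effector and a target of the pathway (chromosome 10, 126766945 to 126778645 in mm9), was at 208, 781 and 651 CPM in MB and 115, 129.7 and 147 CPM at P7. It rose by 2.07 ± 0.38 (FDR 0.000616), without overlap, and MB replicate 1 was the lowest tumour. Cdk6, a kinase that drives cells into S phase, was at 370.2, 211 and 253 CPM in MB and 19.2, 22.96 and 40.9 CPM at P7, a rise of 3.33 ± 0.40 (FDR 1.28e-05). The D cyclin Ccnd1, a partner of that kinase, was at 448, 1223 and 1154 CPM in MB and 197, 209 and 305 CPM at P7, a rise of 1.99 ± 0.35 (FDR 0.000428). Sfrp1, a secreted Wnt inhibitor, was at 1771, 1526 and 1697 CPM in MB and 366, 431 and 426 CPM at P7. It was about equally high in all 3 tumours, and rose by 2.03 ± 0.21 (FDR 2.97e-06). Other members that rose include Hhip, Mycn, Foxm1 and Ccnd2. The call for Ccnd2 (0.79 ± 0.25, FDR 0.0235) was lost without any 1 of MB replicates 1 and 3 or P7 replicates 1 and 2 (0.63 to 0.76, FDR 0.0555 to 0.0962).

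Receptors and ligands moved both ways, 5 of 12 rising and 4 falling (median 0.23), with 3 rising without MB replicate 2, MB replicate 3 or P7 replicate 2 or when the 6 libraries were fitted alone. Boc, a co-receptor for Shh, rose in every tumour, from 171 ± 21.4 to 523 ± 59.02 CPM (1.61 ± 0.19, FDR 1.37e-05). Hhip, which binds Shh and holds it back, rose by 1.77 ± 0.35 (FDR 0.00101). The co-receptor Gas1 and Smo also passed the test, at 1.12 ± 0.36 (FDR 0.0245) and 0.56 ± 0.21 (FDR 0.0489), with overlapping groups. Both calls rested on single libraries: Gas1 was at 0.79 to 0.98 without MB replicate 2 or 3 or P7 replicate 2 (FDR 0.0839 to 0.127), and Smo at 0.43 to 0.53 without MB replicate 2 or 3 or P7 replicate 1 or 2 (FDR 0.127 to 0.169).

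The co-receptor Cdon went the other way from its relative Boc. It was at 1.19, 0.562 and 1.08 CPM in MB and 5.96, 7.62 and 12.4 CPM at P7, and fell by 3.21 ± 0.35 on the log2 scale (FDR 5.82e-06). Shh itself was at 0.0397, 0.0977 and 0 CPM in MB and 2.51, 0.717 and 1.16 CPM at P7, a change of -4.68 ± 0.74 (FDR 0.000169), without overlap. With so few counts in the tumours, the change of Shh was -5.91 without MB replicate 2 and -3.99 without P7 replicate 1. Calb1, a marker of the Purkinje cells that make Shh, was also lower in the tumours (below), and the part of those cells in the change was not tested. Lrp2, an endocytic receptor, was at 0.317, 0.2198 and 0.3202 CPM in MB and 2.104, 1.41 and 2.23 CPM at P7. Disp2, a relative of the protein that releases hedgehog ligands, was at 13.1, 26.5 and 37.6 CPM in MB and 129, 71.2 and 124 CPM at P7. Both fell, with changes of -2.75 ± 0.49 (FDR 0.000496) and -2.07 ± 0.44 (FDR 0.00177).

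Among the 18 genes that carry the signal inside the cell, 3 rose and 2 fell (median 0.07). Without MB replicate 1, 6 rose and 2 fell. Without any 1 of the other libraries of this comparison, 1 fell. The Gli factors went in opposite directions. Gli3, which mainly represses the pathway's targets, was at 6.94, 1.93 and 2.602 CPM in MB and 44.1, 39.7 and 44.6 CPM at P7. It fell by 3.50 ± 0.44 on the log2 scale (FDR 1.95e-05), and by 4.25 without MB replicate 1, the tumour in which it was highest. Gli2, the main activator, averaged 267 ± 49.1 CPM in MB and 167 ± 31.3 CPM at P7, with no overlap, and its change of 0.68 ± 0.32 was not called (FDR 0.118). Tulp3, a ciliary trafficking protein, rose by 0.82 ± 0.18 (FDR 0.00273).

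**Figure D2:**
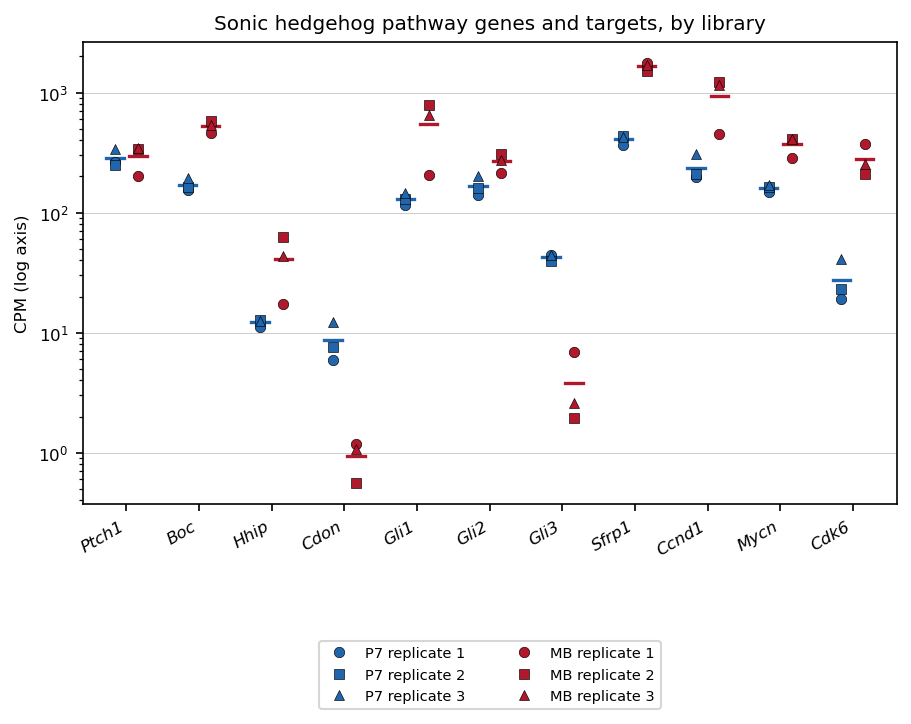
CPM (log axis) of 11 genes of the Sonic hedgehog pathway and its targets in the 3 P7 libraries (blue) and the 3 MB libraries (red), with symbols for replicates 1 to 3 and a bar at each group's mean. Gli1, Boc, Hhip, Sfrp1, Ccnd1, Mycn and Cdk6 are higher in every tumour than in any P7 library, Gli3 and Cdon are lower in every tumour, and Ptch1 overlaps.

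Cell cycle genes were higher or not called: 19 of 39 rose, none fell, and the median was 0.57. Replication licensing genes were among those that rose, with every tumour above every P7 library. Mcm2, a subunit of the replicative helicase, was at 539.8, 616 and 488 CPM in MB and 200.2, 208 and 199 CPM at P7 (1.44 ± 0.21, FDR 7.97e-05). Cdt1, which loads that helicase, was at 102, 168 and 164 CPM in MB and 52.3, 47.98 and 67.6 CPM at P7 (1.37 ± 0.24, FDR 0.000459). Another helicase subunit, Mcm6, rose from 248 ± 34.6 to 595 ± 18.9 CPM (1.26 ± 0.21, FDR 0.000282). The general proliferation markers differed less. Mki67 averaged 2144 ± 628 CPM in MB and 1724 ± 418 CPM at P7 (0.31 ± 0.31, FDR 0.476), and Top2a 1022 ± 127 and 854 ± 125 CPM (0.26 ± 0.20, FDR 0.339). Neither was called, and the groups overlapped for both. Shares of dividing cells were not measured.

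All 3 Myc genes rose, and of 11 genes of the Myc network 4 were called higher and none lower (median 0.39). Myc was at 41.3, 207 and 165 CPM in MB and 20.6, 26.3 and 20.1 CPM at P7 (2.63 ± 0.40, FDR 0.000114). Mycl was at 480.5, 343 and 348 CPM in MB and 132, 157 and 140.1 CPM at P7 (1.45 ± 0.19, FDR 3.03e-05). Mycn, the family member that Shh induces in granule precursors, was at 286, 412 and 412 CPM in MB and 149.6, 163 and 169 CPM at P7 (1.21 ± 0.23, FDR 0.000678). The tumours differed in which member was high, since MB replicate 1 was the lowest tumour for Myc and Mycn and the highest for Mycl. Mxd1, an antagonist of Myc, was at 51.9, 41.6 and 43.4 CPM in MB and 31.2, 34.7 and 33.4 CPM at P7. Its small change (0.46 ± 0.16, FDR 0.0323) was lost without MB replicate 1 (0.36, FDR 0.0767) or any 1 P7 library (0.46 to 0.50, FDR 0.0512 to 0.0711).

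Several inhibitors of the cell cycle were higher as well. Of 29 CDK inhibitors, pocket proteins and p53 targets, 12 rose and 3 fell (median 0.37), and 7 rose when the 6 libraries were fitted alone. Cdkn2a, which encodes p16Ink4a and, from an upstream first exon, p19Arf, was at 18.4, 20.3 and 8.49 CPM in MB and 0.146, 0.0552 and 0.154 CPM at P7. It rose by 7.04 ± 0.65 (FDR 1.04e-06), the largest change in the list. The neighbouring Cdkn2b was at 3.25, 7.52 and 3.92 CPM in MB and 0.731, 0.579 and 1.502 CPM at P7 (2.41 ± 0.46, FDR 0.000761). Cdkn1a, the p53 target that encodes p21, was at 125, 148 and 73.8 CPM in MB and 26.8, 26.7 and 34.7 CPM at P7 (1.97 ± 0.26, FDR 3.25e-05). Every tumour was above every P7 library for these 3 genes. Cdkn2c rose by 1.41 ± 0.21 (FDR 8.08e-05) and Cdkn1b by 0.76 ± 0.18 (FDR 0.00336). Trp53, which encodes p53, was called (0.93 ± 0.29, FDR 0.0197), but not without any 1 of MB replicates 2 and 3 and P7 replicates 1 and 2 (0.69 to 0.95, FDR 0.052 to 0.0982). The CDK inhibitor Cdkn1c went the other way, from 39.4 ± 7.47 to 13.5 ± 1.03 CPM (-1.55 ± 0.29, FDR 0.000699), without overlap. Also among the genes that fell, Plk2, a kinase induced by p53, was at 11.4, 16.5 and 11.8 CPM in MB and 69.6, 61.3 and 42.95 CPM at P7 (-2.13 ± 0.24, FDR 8.85e-06).

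The 2 starts of Cdkn2a are shown because both transcripts gained reads. The RefSeq promoters (GRCm38.p6, minus strand, 300 bases each, mostly before the start) are printed 5′ to 3′ with CG dinucleotides in capitals.
Upstream start (p19Arf), chr4:89294570-89294869: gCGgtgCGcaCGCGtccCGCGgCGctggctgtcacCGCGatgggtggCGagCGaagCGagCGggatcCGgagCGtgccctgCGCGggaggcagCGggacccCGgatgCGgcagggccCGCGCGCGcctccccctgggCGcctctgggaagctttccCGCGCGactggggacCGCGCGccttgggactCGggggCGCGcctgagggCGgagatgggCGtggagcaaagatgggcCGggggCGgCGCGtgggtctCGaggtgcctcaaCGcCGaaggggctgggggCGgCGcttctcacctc
Downstream start (p16Ink4a), chr4:89282143-89282442: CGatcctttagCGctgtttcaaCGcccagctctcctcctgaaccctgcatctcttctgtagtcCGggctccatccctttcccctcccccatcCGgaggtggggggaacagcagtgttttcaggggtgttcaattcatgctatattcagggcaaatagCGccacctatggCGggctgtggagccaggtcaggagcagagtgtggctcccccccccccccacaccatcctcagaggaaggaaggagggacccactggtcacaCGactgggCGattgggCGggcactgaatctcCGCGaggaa
The upstream sequence holds 45 CG and the downstream one 12, against a median of 7 over 32851 promoters of the same length, of which 1.93% and 39.6% hold at least as many. The gene was picked for this after its counts had been seen, and its methylation was not analysed here. Reads over the transcript from the upstream start were 482, 874 and 219 in MB and 4, 2 and 4 at P7. Those over the transcript from the downstream start were 329, 665 and 166 in MB and 1 in each P7 library. The transcripts share exons and a read over both counts for each, so these values do not divide the reads between the starts.

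Polycomb genes, the repressors that place and read methylation on histone H3, were called higher at a share near that of all genes: 6 of 32 rose, none fell, and the median was 0.15. Ezh2, the methyltransferase of the PRC2 complex (chromosome 6, 47480273 to 47545029 in mm9), was at 343, 377 and 330.2 CPM in MB and 159, 254 and 204 CPM at P7, a rise of 0.77 ± 0.19 (FDR 0.00441). Aebp2, a PRC2 cofactor, was at 182, 124 and 112 CPM in MB and 82.9, 88.9 and 70.7 CPM at P7 (0.79 ± 0.23, FDR 0.0157). Its call was lost without MB replicate 1 (0.55, FDR 0.0672) or P7 replicate 3 (0.70, FDR 0.063). Cbx2, the chromobox reader of PRC1, was at 109, 139 and 142 CPM in MB and 63.1, 87.2 and 81.8 CPM at P7 (0.75 ± 0.19, FDR 0.00641). Pcgf5, a subunit of variant PRC1, was at 22.1, 11.4 and 10.6 CPM in MB and 6.14, 8.002 and 5.89 CPM at P7 (1.13 ± 0.28, FDR 0.00495). Phc1, a PRC1 subunit, was called at 0.53 ± 0.16 (FDR 0.0159) but not without P7 replicate 1 (0.44, FDR 0.0586), and Pcgf6 was called at 0.62 ± 0.15 (FDR 0.00511). Ezh2, Aebp2 and Phc1 lie on chromosome 6, where most genes were higher in the tumours (below), and off that chromosome 3 of 28 members rose. Suz12, the PRC2 scaffold on chromosome 11, was at 0.46 ± 0.20 (FDR 0.0919) and was not called. Hox genes, classic Polycomb targets, were close to silent: 5 of 38 in the table passed the filter on low counts, none was called, and their summed level was 0.16 to 0.34 CPM in MB and 0.058 to 0.19 CPM at P7.

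Among 24 transcription factors of the granule lineage, 4 rose and 7 fell (median -0.25). Without MB replicate 1, 7 rose and 6 fell (median -0.13). Atoh1, the factor that defines dividing granule precursors (chromosome 6), was at 322, 282 and 236 CPM in MB and 23.6, 39.1 and 29.2 CPM at P7, a rise of 3.19 ± 0.30 (FDR 1.28e-06). Lhx2, a homeobox gene, was at 34.99, 74.7 and 60.7 CPM in MB and 3.303, 3.45 and 2.696 CPM at P7 (4.17 ± 0.56, FDR 3.93e-05). It averaged 44.6 CPM at E15.5, against 56.8 ± 20.2 CPM in MB. Barhl1 and Neurod6 also rose, by 1.30 ± 0.25 (FDR 0.000789) and 1.11 ± 0.23 (FDR 0.00164). Neurod2, a factor of differentiating neurons, was at 2.499, 2.44 and 11.7 CPM in MB and 264, 211 and 374 CPM at P7, a change of -5.69 ± 0.56 (FDR 1.96e-06; -6.84 without MB replicate 3). Lhx9 was at 0, 0.0489 and 0.1201 CPM in MB and 0.672, 0.911 and 0.886 CPM at P7, a change of -3.80 ± 0.80 (FDR 0.00165; -4.60 without MB replicate 3). Neurod1 fell by 1.87 ± 0.30 (FDR 0.000178) and Pax6 changed by -1.71 ± 0.29 (FDR 0.000338). Zic1, which marks the lineage at all stages, averaged 1512 ± 308 CPM in MB and 2055 ± 120.3 CPM at P7. Every tumour was below every P7 library for Zic1, but the change of -0.44 ± 0.21 was not called (FDR 0.115). The defining markers of the lineage were thus present in both groups.

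Genes of granule neuron maturation were lower in the tumours: 31 of 51 fell, none rose, and the median was -1.14. Slc17a7, the vesicular glutamate transporter of granule neurons, was at 1.55, 0.977 and 0.6404 CPM in MB and 83.1, 70.1 and 79.97 CPM at P7, a change of -6.20 ± 0.64 (FDR 2.97e-06). The NMDA receptor subunit Grin2a was at 0.0397, 0.171 and 0.1201 CPM in MB and 1.05, 1.24 and 3.77 CPM at P7. Vsnl1, a neuronal calcium sensor, was at 0.397, 1.099 and 0.761 CPM in MB and 10.1, 14.1 and 14.3 CPM at P7. All 3 were lower in every tumour than in any P7 library, and Grin2a and Vsnl1 changed by -4.05 ± 0.70 (FDR 0.000354; -3.25 without P7 replicate 3) and -4.05 ± 0.71 (FDR 0.000384). Some of these genes are shared by other neurons, whose markers were also lower in MB, and the part of those cells in the change was not tested.

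Of 18 stem and progenitor genes, 2 rose and 4 fell (median -0.40). Without MB replicate 1, 5 rose and 5 fell, and 1 rose without MB replicate 2, MB replicate 3 or P7 replicate 2. Nes, an intermediate filament of neural progenitors, rose from 53.6 ± 10.02 to 205 ± 53.8 CPM (1.93 ± 0.27, FDR 6.18e-05). Id4 was at 3.89, 6.18 and 4.16 CPM in MB and 87.9, 70.2 and 37.4 CPM at P7. Hopx was at 5.32, 7.35 and 12.1 CPM in MB and 76.7, 37.2 and 35.7 CPM at P7, and Fabp7, a fatty acid binding protein of radial glia, at 81.6, 66.7 and 90.5 and 669.9, 403 and 324 CPM. All 3 genes were lower in every tumour than in any P7 library. The changes were -3.77 ± 0.33 for Id4 (FDR 6.92e-07), -2.60 ± 0.45 for Hopx (FDR 0.000389) and -2.55 ± 0.44 for Fabp7 (FDR 0.000339).

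Oncofetal and imprinted growth genes mostly fell: 12 of 17, with 3 rising and a median of -2.68. Igf2, the fetal growth factor, was at 11.6, 12.2 and 7.93 CPM in MB and 245, 227 and 213 CPM at P7, a change of -4.43 ± 0.32 (FDR 1.02e-07). Igf2bp2, an RNA-binding protein of fetal tissue, was at 0.119, 0.0489 and 0.1201 CPM in MB and 4.91, 5.16 and 6.702 CPM at P7, and Igf2bp1 at 0, 0 and 0.3202 and 1.52, 1.35 and 3.74 CPM. The size of the fall of Igf2bp1 rested on single libraries: its change was -4.51 ± 0.84 (FDR 0.000652), but without MB replicate 3 the tumours had no count, and it was -3.73 without MB replicate 2 and -3.92 without P7 replicate 3. Lin28b, which blocks let-7 microRNAs, had 1 count over the 3 tumours and 236 over the P7 libraries, a ratio of 223 (95% exact interval 39.6 to 8847, counting error only). The imprinted gene Zim1 went up, from 3.24 ± 0.2099 to 39.5 ± 43.2 CPM (3.60 ± 0.63, FDR 0.00038), and by 2.18 without MB replicate 1, in which it was highest. In the insulin-like growth factor axis, 6 of 13 fell and Irs1, a docking protein of the receptor, was the member that rose (median -1.34). Irs1 averaged 301 ± 20.96 CPM in MB and 70.96 ± 11.3 CPM at P7 (2.09 ± 0.30, FDR 7.93e-05). Igfbp5 was at 63.4, 19.7 and 17.1 CPM in MB and 387, 356 and 574 CPM at P7, Igfbp4 at 9.32, 11.99 and 7.12 and 59.2, 57.8 and 51.7 CPM, and Igf2r at 18.01, 9.92 and 10.6 and 82.2, 51.1 and 74.8 CPM. All 3 fell without overlap, Igfbp5 with a change of -3.72 ± 0.50 (FDR 3.67e-05), and -4.57 without MB replicate 1. Igf2 and several binding proteins are also made by vessels and meninges, whose markers were lower in MB (below), and the part of those cells was not tested.

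Other signalling pathways were mixed. Of 21 Wnt genes, 5 rose and 9 fell (median -0.57), with 3 rising without MB replicate 2 or when the 6 libraries were fitted alone. Rnf43, which removes Wnt receptors, rose from 4.500 ± 1.95 to 42.5 ± 14.97 CPM (3.23 ± 0.48, FDR 9.41e-05). Lef1, the transcription factor of the pathway, was at 0.635, 0.4397 and 0.801 CPM in MB and 5.09, 5.46 and 9.55 CPM at P7 (-3.44 ± 0.39, FDR 8.03e-06). The Wnt targets Sp5 and Notum, the latter a secreted enzyme that inactivates Wnt, were at 0.159, 2.003 and 4.16 and 0.0397, 0.0977 and 0.0801 CPM in MB against 25.7, 16.8 and 43.3 and 1.900, 1.88 and 1.54 CPM at P7. Their changes were -3.76 ± 0.65 (FDR 0.000341; -4.63 without MB replicate 3) and -4.47 ± 0.50 (FDR 6.88e-06). Of 20 Notch genes, 5 rose and 7 fell (median -0.20), with 3 rising without MB replicate 3 or P7 replicate 3. The ligands Jag2 and Dll1 were at 0.912, 1.27 and 1.96 and 2.102, 4.69 and 2.92 CPM in MB against 19.9, 15.8 and 19.8 and 17.2, 16.4 and 17.5 CPM at P7, and the receptor Notch3 at 3.17, 8.23 and 10.6 against 64.7, 21.8 and 49.5 CPM. Notch1, the main receptor of neural progenitors, fell from 90.5 ± 33.3 to 33.5 ± 16.8 CPM (a change of -1.43 ± 0.37, FDR 0.00707; -1.39, FDR 0.0625 when the 6 libraries were fitted alone). Dtx1, a ubiquitin ligase of the pathway, rose instead (153, 537 and 441 CPM in MB, 107, 83.4 and 91.1 CPM at P7, 2.005 ± 0.32, FDR 0.000185), as did Hey1 (0.98 ± 0.17, FDR 0.000423), a target of Notch.

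Bone morphogenetic protein (Bmp) and Tgf-beta genes mostly fell: 12 of 29 fell, 1 rose and the median was -0.73. The ligands Bmp6 and Bmp4 were at 0.198, 0.513 and 0.2802 and 0.159, 0.391 and 0.1601 CPM in MB against 14.3, 13.02 and 14.3 and 9.24, 6.32 and 9.78 CPM at P7. Their changes were -5.31 ± 0.40 (FDR 1.71e-07) and -5.05 ± 0.50 (FDR 2.08e-06; -5.69 without MB replicate 2). Msx2 and Msx1, transcription factors induced by Bmp, were nearly absent: Msx2 had 3 counts over the tumours against 1859 over the P7 libraries, a ratio of 586 (95% exact interval 200.1 to 2843), and Msx1 was at 0.0793, 0.6595 and 0.1201 CPM in MB and 3.16, 3.75 and 11.4 CPM at P7 (-4.24 ± 0.76, FDR 0.00049, but -5.87 without MB replicate 2 and -3.42 without P7 replicate 3). Smad3, a signal transducer of Tgf-beta, was the member that rose, from 48.8 ± 9.14 to 191 ± 75.6 CPM (1.97 ± 0.25, FDR 2.56e-05).

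In glycolysis 3 of 21 genes rose and 9 fell (median -0.50), and hexokinase genes moved in opposite directions. Hk2, the hexokinase isoform common in tumours (chromosome 6), was at 571, 859.9 and 937 CPM in MB and 63.7, 56.5 and 17.5 CPM at P7, a rise of 4.10 ± 0.42 (FDR 2.97e-06). Hk1, the main isoform of the brain (chromosome 10), fell from 109.7 ± 12.7 to 28.02 ± 8.66 CPM (-1.97 ± 0.27, FDR 5.14e-05). Eno2, the neuronal enolase, was at 2.102, 1.93 and 1.401 CPM in MB and 40.2, 22.5 and 23.9 CPM at P7, and Pdk1, a kinase that restrains pyruvate oxidation, at 10.8, 2.198 and 1.801 and 21.7, 21.1 and 16.6 CPM. Their changes were -3.99 ± 0.59 (FDR 8.84e-05) and -2.02 ± 0.49 (FDR 0.00449), and Pdk1 was at -3.30 without MB replicate 1. Its call was lost when the 6 libraries were fitted alone (-1.996, FDR 0.0572). Tpi1, triose phosphate isomerase, also on chromosome 6, was at 51.3, 29.3 and 41.1 CPM in MB and 213, 221 and 195 CPM at P7 (-2.37 ± 0.24, FDR 2.7e-06), so not every gene of that chromosome was higher.

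By chromosome, the median difference between tumour and P7 libraries was largest on chromosome 6 in each of the 3 tumours. For each library and autosome, the median over all tested genes was taken of log2 CPM minus the mean of the P7 libraries (for a P7 library, of the other P7 libraries). On chromosome 6 it was 0.46, 0.42 and 0.43 in MB replicates 1 to 3 and 0.03, 0.01 and -0.03 in the P7 libraries. The other autosomes lay between -0.29 and 0.15 in MB replicate 1, between -0.12 and 0.12 in MB replicate 2 and between -0.14 and 0.13 in MB replicate 3. Of 726 tested genes on chromosome 6, 281 were called higher (38.7%), against 11.4% to 14.1% on each other autosome. Lower calls made up 18.2% of the chromosome's genes, within the range of 16.03% to 25.5% on the others. Of genes on chromosome 6, 68.3% were above 0, against 46.7% to 55.8% on each other autosome.

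Set against the 12 precursor libraries of all 4 ages, the chromosome 6 median was 0.41 higher in MB (exact two-sided permutation p = 0.0022, the smallest that 455 splits can give; 0.0209 after Benjamini-Hochberg adjustment over the 19 autosomes; higher in 3 of 3 tumours than in any precursor library). Chromosomes 4 and 9 also passed this test with far smaller differences of -0.09 and -0.05 (adjusted p 0.0209 and 0.0278). Over expressed genes only, with each library centred, chromosome 6 passed (0.45, adjusted p 0.0418) and chromosomes 4 and 9 did not (adjusted p 0.0835 and 0.702). With the GC and length correction, chromosome 6 passed (0.44, adjusted p 0.0139), chromosomes 4 and 9 did not (adjusted p 0.601 and 0.73), and chromosomes 5 and 17 passed instead (0.08 and 0.14, adjusted p 0.0139 each). This test was added after the chromosome medians had been seen, and the precursor libraries include 4 ages. The rise was not limited to 1 segment: 11 of 13 windows of 10 Mb with at least 20 tested genes had a median above 0 in all 3 tumours, with window medians from -0.52 to 1.25. The exceptions were 20000001 to 30000000 (0.005, -0.03 and 0.30 in MB replicates 1 to 3) and 90000001 to 100000000 (-0.52, 0.07 and -0.03). Windows of the other autosomes were not counted. Members of the lists on chromosome 6 that rose include Ezh2, Atoh1, Foxm1, Mcm2, Cdkn1b, Tulp3 and Hk2. Their changes of 0.77, 3.19, 1.19, 1.44, 0.76, 0.82 and 4.10 stand beside a chromosome median of 0.47 in the same fit. Smo, Ccnd2, Mxd1, Aebp2, Phc1, Neurod6, Peg10, Foxp2 and Cd4 also rose and lie there. So do Slc2a3 and Gapdh, the other glycolysis genes that rose. The changes of Smo, Mxd1 and Phc1, given above, were near that median. DNA was not analysed here.

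**Figure D3:**
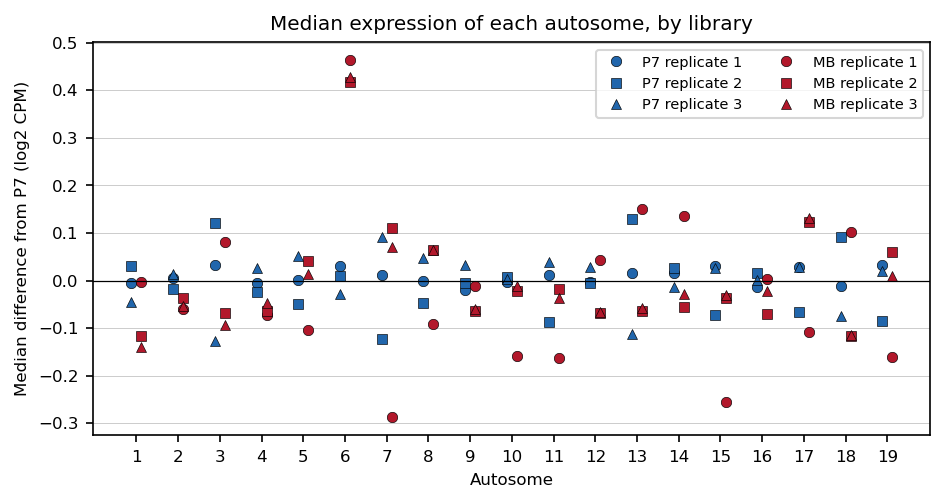
Median difference in log2 CPM from the P7 libraries over the tested genes of each autosome, for the 3 P7 libraries (blue) and the 3 MB libraries (red). Chromosome 6 is at 0.42 to 0.46 in the tumours, and every other point lies between -0.29 and 0.15.

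Markers of other cerebellar cell types differed between the groups as well. In bulk RNA, fewer cells of a type and less RNA per cell cannot be told apart. Of 10 GABAergic interneuron markers 9 fell (median -7.75). Their summed level differed less, at 323 to 378 CPM in MB and 511 to 794 CPM at P7, because 1 member that was not called held most of it in MB. Pax2, which marks interneuron precursors, had 1 count over the tumours and 5676 over the P7 libraries, a ratio of 5365 (95% exact interval 962 to 211936). Tfap2b was at 0.0397, 0.0733 and 0 CPM in MB and 46.3, 68.3 and 78.9 CPM at P7, and Lhx5 at 0.0397, 0.171 and 0.0801 and 42.96, 40.2 and 84.8 CPM. Without MB replicate 2 the changes were -11.37 for Tfap2b (against -10.40 ± 0.59) and -9.77 for Lhx5 (against -8.97 ± 0.55). Gad1, the enzyme that makes GABA, averaged 1.59 ± 0.651 CPM in MB and 84.3 ± 10.7 CPM at P7 (a change of -5.73 ± 0.30, FDR 7.23e-09). Of 10 Purkinje markers 8 fell and 1, Foxp2, rose (median -3.38, sums of 135 to 258 against 488 to 1191 CPM). Calb1, which encodes calbindin, was at 0.159, 0.244 and 0.1601 CPM in MB and 273, 77.1 and 115 CPM at P7, and Pcp2, a protein of Purkinje cells, at 0.119, 0.586 and 0.6805 and 66.8, 22.3 and 38.3 CPM. Calb1 fell by 9.60 ± 0.66 (FDR 7.05e-08; -8.87 without P7 replicate 1). Of 6 markers of unipolar brush cells and nuclear neurons 4 fell (median -2.94, sums of 61.6 to 316 against 198 to 402 CPM), with Eomes at 2.22, 1.197 and 1.12 CPM in MB and 52.3, 73.7 and 50.6 CPM at P7.

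Markers of vessels and meninges were lower too. All 10 endothelial markers fell (median -3.51), and their summed level was 30.7 to 46.6 CPM in MB and 355 to 418 CPM at P7. Kdr, the receptor for vascular endothelial growth factor, was at 1.43, 4.35 and 4.84 CPM in MB and 89.8, 97.6 and 75.2 CPM at P7. Of 12 mural and meningeal markers 9 fell (median -3.37, sums of 68.5 to 83.7 against 459 to 729 CPM). Col1a2, a fibrillar collagen, was at 3.57, 2.37 and 2.201 CPM in MB and 115, 48.8 and 66.7 CPM at P7, and Rgs5, a pericyte gene, at 5.24, 7.35 and 11.7 and 191, 314 and 146 CPM. Red cell genes fell in 3 of 3 tested (sums of 0.12 to 5.44 against 48.2 to 89.8 CPM). Of 12 oligodendrocyte markers 10 fell (median -3.47, sums of 480.1 to 1118 against 978 to 1866 CPM), with the myelin gene Mag at 0.595, 1.17 and 0.761 CPM in MB and 129, 43.8 and 53.04 CPM at P7 (-6.44 ± 1.16, FDR 0.000488; -5.75 without P7 replicate 1). Pdgfra, the marker of oligodendrocyte precursors, was the exception (1.05 ± 0.32, FDR 0.0191), and its call was lost without MB replicate 1 (0.47, FDR 0.137) or P7 replicate 1 or 3 (1.03 and 0.95, FDR 0.0568 and 0.0703). Of 10 astroglial markers 7 fell and 2 rose (1 without MB replicate 3 or P7 replicate 2; median -1.41, sums of 1699.8 to 2202 against 2309.7 to 4479.9 CPM). The water channel Aqp4 fell from 734 ± 338 to 102 ± 18.4 CPM (-2.85 ± 0.48, FDR 0.000294), and S100b rose from 40.2 ± 16.03 to 175 ± 44.7 CPM (2.12 ± 0.50, FDR 0.00371). Choroid plexus markers varied within both groups, with sums of 55.8 to 281 CPM in MB and 53.02 to 2048 CPM at P7, and 1 of 8 was called, lower (4 without P7 replicate 1, and none without P7 replicate 3). Of 9 T cell markers 3 could be tested and 1 rose, a call lost without MB replicate 1, P7 replicate 1 or P7 replicate 3. The part of any of these cell types in the other results was not tested.

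**Figure D4:**
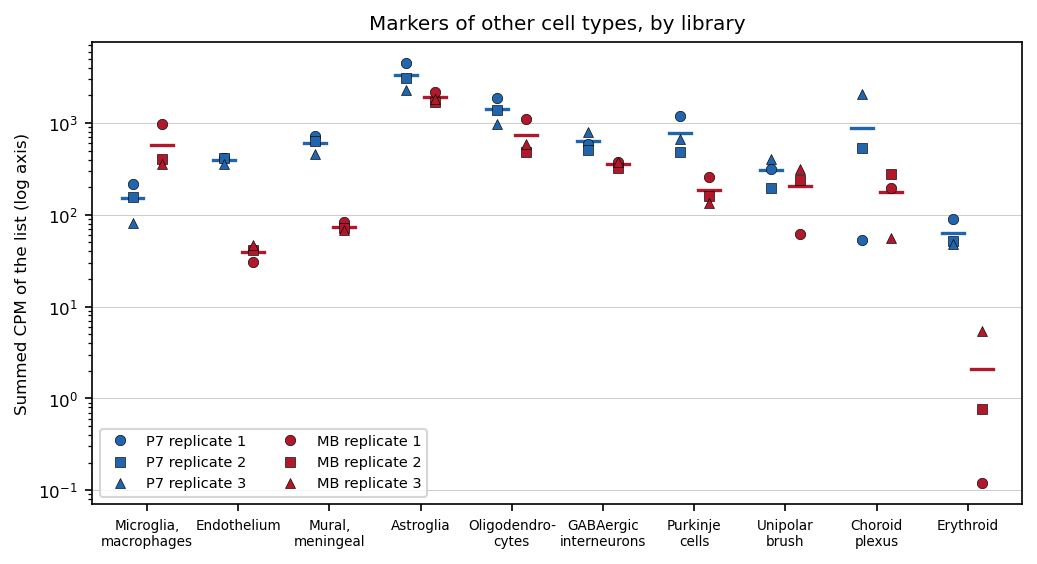
Summed CPM (log axis) of marker lists for 10 other cell types in the P7 (blue) and MB (red) libraries, with symbols for replicates 1 to 3 and a bar at each group's mean. Every tumour is above every P7 library for microglia and macrophages, and below for endothelium, mural and meningeal cells, astroglia, GABAergic interneurons, Purkinje cells and red cells.

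Immune genes went the other way. Of 17 microglia and macrophage markers 10 rose and none fell (median 1.79; 9 and 1 without MB replicate 1), with sums of 361 to 971 CPM in MB and 80.7 to 217 CPM at P7. Without P7 replicate 3, which had the lowest of these sums, 7 rose (median 1.57), and without P7 replicate 1, 12 rose. Lyz2, the lysozyme of myeloid cells, was at 349, 121 and 127 CPM in MB and 10.6, 9.46 and 4.39 CPM at P7 (4.60 ± 0.50, FDR 5.29e-06, and 3.92 without MB replicate 1). C1qa, a complement subunit, was at 94.4, 48.3 and 35.5 CPM in MB and 18.6, 14.02 and 4.43 CPM at P7 (2.26 ± 0.50, FDR 0.00256). Ptprc, the common leukocyte antigen, was at 26.5, 9.697 and 7.37 CPM in MB and 3.303, 2.79 and 1.12 CPM at P7, and Aif1 at 7.62, 2.69 and 3.12 and 1.11, 0.552 and 0.385 CPM. MB replicate 1 was the highest tumour for all 4 genes, and without it Ptprc was at 1.82 (against 2.58 ± 0.50) and Aif1 at 2.06 (against 2.69 ± 0.52), both still called. Of the 7 members that were not called, Tmem119 averaged 2.43 ± 0.876 CPM in MB and 2.47 ± 0.7901 CPM at P7 (-0.03 ± 0.35, FDR 0.962). P2ry12 averaged 9.29 ± 9.68 and 12.3 ± 7.66 CPM (-0.41 ± 0.65, FDR 0.674) and was called lower without MB replicate 1 (-1.73, FDR 0.0305).

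Of 24 interferon and antigen presentation genes 11 rose and 2 fell (median 0.86). When the 6 libraries were fitted alone 7 rose and none fell, and none fell without MB replicate 2, MB replicate 3 or P7 replicate 1. The list had sums of 376 to 420 CPM in MB and 256 to 295 CPM at P7. The class II genes H2-Aa and H2-Ab1 were at 3.13, 22.5 and 28.4 and 2.58, 24.5 and 26.7 CPM in MB against 0.321, 0.166 and 0.347 and 1.05, 0.607 and 0.809 CPM at P7. Cd74, the chaperone of class II, was at 7.22, 51.8 and 60.5 CPM in MB and 1.64, 0.966 and 0.501 CPM at P7 (5.25 ± 0.72, FDR 4.82e-05). For class II genes MB replicate 1 was the lowest tumour, whereas it was the highest for Lyz2. Ifit3, an interferon-induced gene, was at 3.73, 1.56 and 2.402 CPM in MB and 0.438, 0.579 and 0.539 CPM at P7. H2-K1, a class I gene, rose by 1.39 ± 0.38 (FDR 0.0101). Class II genes are expressed by myeloid cells, whose markers rose in the same libraries, and their part in the change was not tested. Immediate early genes varied among the tumours, with a summed level of 593 CPM in MB replicate 1, 3408 and 3599 CPM in MB replicates 2 and 3, and 2660 to 4131 CPM at P7. In that list 1 of 19 rose and 1 fell, 2 rose and none fell without MB replicate 1, and 1 rose and 4 fell without MB replicate 2. Fosl2 rose from 23.6 ± 3.65 to 114 ± 40.4 CPM (2.28 ± 0.45, FDR 0.00101).

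The largest rises over all autosomal genes, counting only called genes that averaged 5 CPM or more and did not overlap, were in genes that P7 precursors barely expressed. Prm1, a protamine of sperm, was at 51.2, 39.3 and 41.8 CPM in MB and 0.0585, 0 and 0.07704 CPM at P7. Th, tyrosine hydroxylase, the rate-limiting enzyme of catecholamine synthesis, was at 12.1, 20.6 and 18.1 CPM in MB, 0.117, 0.1104 and 0.154 CPM at P7 and 9.56 CPM on average at E15.5. Lcn2, a secreted iron-binding protein of inflammation, was at 35.7, 63.1 and 41.7 CPM in MB and 0.321, 0.0828 and 0.0385 CPM at P7. These rises of 9.90 ± 0.60 (FDR 2.8e-08), 7.03 ± 0.44 (FDR 3.3e-08) and 8.21 ± 0.66 (FDR 2.85e-07) were shared by all 3 tumours. Without P7 replicate 2 Prm1 was at 9.27, and without P7 replicate 1 Lcn2 was at 9.47. Cbln4, a synaptic organiser, was at 99.8, 41.9 and 37.5 CPM in MB and 0.585, 0.938 and 0.385 CPM at P7 (6.52 ± 0.47, and 5.93 without MB replicate 1). The uncharacterised 9530053A07Rik was at 28.8, 203 and 158 CPM in MB and 0.468, 0.8002 and 0.847 CPM at P7, and Fcgbp at 3.29, 13.5 and 15.3 and 0.146, 0.221 and 0.07704 CPM.

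Other large rises were far higher in 1 tumour, MB replicate 1. Tecta, a protein of the inner ear's tectorial membrane, was at 899, 31.1 and 43.5 CPM in MB and 0.643, 0.883 and 0.693 CPM at P7 (8.76 ± 1.16, FDR 3.39e-05, and 5.64 without MB replicate 1). Krt12, a keratin of the cornea, was at 101, 1.099 and 4.16 CPM in MB and 0.468, 0.359 and 0.308 CPM at P7 (6.53 ± 1.31, and 2.76 without MB replicate 1). Etnppl was at 28.6, 1.17 and 1.12 CPM in MB and 0.117, 0.138 and 0.154 CPM at P7 (6.20 ± 1.14, and 3.04 without MB replicate 1). The pseudogene Rps27a-ps2, high in the other tumours, was at 0.238, 72.1 and 90.1 CPM in MB and 0.0585, 0.0552 and 0.154 CPM at P7. It belongs to the 58 genes whose gene counts and transcript reads differed between libraries as described above, and in the transcript table its change was 0.75 (FDR 0.134). Cdkn2a, given above, is also among the 12 largest rises.

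The 12 largest falls include interneuron and Purkinje cell genes, and 5 of them (Pax2, Tfap2b, Lhx5, Calb1 and Msx2) belong to the lists above. Lbx1 and Neurog2, transcription factors of GABAergic and other neural progenitors, had 3 and 2 counts over the tumours against 1998 and 1108 over the P7 libraries. The ratios were 629 (95% exact interval 215 to 3055) for Lbx1 and 524 (145 to 4329) for Neurog2. Nphs1 and Kirrel2, adhesion proteins first known from the kidney filter, both fell. Nphs1 had 1 count against 1702, a ratio of 1609 (288 to 63577), and Kirrel2 was at 0.119, 0.0977 and 0.1201 CPM in MB and 43.1, 43.1 and 43.7 CPM at P7. Optc had 1 count against 1226, a ratio of 1159 (208 to 45807), and the organic anion transporter Slc22a6 had 2 against 1155, a ratio of 546 (151 to 4513). Nefl, the light neurofilament of mature axons, was at 0.238, 0.0489 and 0.1201 CPM in MB and 54.5, 44.4 and 39.7 CPM at P7, a change of -8.50 ± 0.37 (FDR 2.37e-09; -9.16 without MB replicate 1).

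A gene higher in MB than at P7 could still be within the range of other ages. By at least 2-fold and at an FDR under 0.05 against each of E15.5, P1, P7 and P14, 525 genes were higher in MB (3.63% of those tested) and 1260 lower (8.72%). These 4 comparisons share the MB libraries. On chromosome 6, 8.82% of tested genes were higher than at every age, against 3.36% on the other autosomes, and 8.95% against 8.71% were lower. Among genes above every age, those of highest level in MB include Sfrp1, D430041D05Rik, Rassf4, Map3k1, Srebf1, Sema7a and Draxin. Srebf1, the master regulator of fatty acid synthesis, was at 970.5, 1080.5 and 1258 CPM in MB, and averaged 118, 159.6, 185 and 131 CPM at E15.5, P1, P7 and P14. Rassf4, a Ras-association gene on chromosome 6, was at 1054, 1171 and 1313 CPM in MB and averaged 61.02, 253, 245 and 200.2 CPM at those ages. Sema7a, a membrane-anchored semaphorin, was at 869, 1178 and 1112 CPM in MB and averaged 213, 199, 238 and 159 CPM. For each of the 3 genes every tumour was above every P7 library. Map3k1 rose over P7 by 1.16 ± 0.26 (FDR 0.00241), and Draxin, an axon guidance protein that inhibits Wnt, by 1.38 ± 0.29 (FDR 0.00181). D430041D05Rik rose by 1.04 ± 0.34 (FDR 0.0259), with FDR 0.05 to 0.0969 (0.89 to 1.10) without any 1 of MB replicate 2 and P7 replicates 1 and 2.

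Among genes below every age, those of highest level at P7 include Nrep, Gpm6a, Stmn2, Kif21b, Sptbn1, Dpysl3 and Ptn, most of them cytoskeletal or membrane genes of growing neurons. Stmn2, a regulator of microtubules in growing axons, was at 239, 236 and 345 CPM in MB, and averaged 2493, 741, 1179 and 1089.5 CPM at E15.5, P1, P7 and P14. Kif21b, a neuronal kinesin, was at 85.4, 159.7 and 208 CPM in MB and averaged 1266, 558, 963 and 447 CPM at those ages. Ptn, a growth factor on chromosome 6, was at 193, 344 and 332 CPM in MB and averaged 1088, 1014, 816 and 773 CPM. The changes from P7 were -1.65 ± 0.24 for Nrep (FDR 9.62e-05), -2.004 ± 0.29 for Gpm6a (FDR 8.53e-05), -1.52 ± 0.29 for Sptbn1 (FDR 0.000714) and -1.65 ± 0.17 for Dpysl3 (FDR 3.54e-06).

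The tumour comparison was set beside postnatal development through P14 against P1, which shares no library with MB against P7. Of 762 genes lower at P14 (5.27% of those tested), 286 were higher in MB (37.5%) and 191 were lower (25.1%). Over all autosomal genes tested these shares were 14% and 20.8%. The 286 are 14.2% of the genes higher in MB. Of 542 genes higher at P14 (3.75%), 265 were lower in MB (48.9%, and 8.83% of the genes lower in MB) and 47 were higher (8.67%). Genes higher at P14 than at P1 were thus more often lower than higher in MB, and more often lower than all genes. Genes lower at P14 than at P1 were found in both directions. Their share higher in MB was above that of all genes, and their share lower was nearer to it. The difference between these shares was not tested. Both comparisons are of bulk RNA, and the part of other cell types in these shares was not tested.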

How the data were processed

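Gene counts were deposited by the authors as 1 file per library, from poly(A) RNA of mouse cells. The submitters' processing notes name Trimmomatic, TopHat, StringTie and HTSeq and the mm9 build, with no versions or roles. Lines that name no gene (no feature, not unique, ambiguous) were removed, 15.4% to 29.2%, 24.7% to 44.6% and 0.52% to 0.71% of the records in the 6 libraries. Of 21889 gene IDs, 20358 matched a symbol and 19523 an autosome.

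Counts were tested with edgeR 4.0.16 (R 4.3.3): TMM scaling, filterByExpr (minimum count 10, minimum total 15), 1 mean per group over all 15 libraries (10 residual degrees of freedom), quasi-likelihood F test, Benjamini-Hochberg adjustment over 15259 genes. Log2 CPM used a prior count of 2. Exact intervals of count ratios are at 95% and cover counting error only. On simulated counts with 200 changed genes, 20.2% of 2-fold and 78% of 4-fold changes were recovered, with 2 false calls.

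The members and gene lists were chosen with earlier results of these data known. Within a list, at most 4 called members with the largest change were given by library. The 12 largest rises and falls were taken over called genes that averaged 5 CPM or more without overlap, and the 8 genes of highest level among those above or below every age. Some genes that these rules pick are not reported here. Alternatives were DESeq2 1.42.0, RLE size factors, no filter, the 6 libraries alone, the deposited counts per transcript and per start site, a replicate block and each library left out.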

Additional observations from a re-analysis of the deposited data

How the results depend on the processing

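The 2019 higher and 3000 lower calls became 2463 and 3153 with DESeq2, 2159 and 2959 with RLE size factors, 1960 and 3031 with no filter on low counts, and 1302 and 2189 when the 6 libraries were fitted alone. They became 1492 and 2188 in the table by start site and 2807 and 4173 in the table by transcript. Leaving out 1 library gave 1624 to 2332 higher and 2566 to 3237 lower genes, 1013 to 1108 and 2273 to 2591 by at least 2-fold, and 499 to 572 and 1159 to 1254 beyond every age. The start site table holds 3479 of the 5019 called genes, and 3409 of these were called there in the same direction. Under the other alternatives 68.6% to 99.1% of the calls were kept, and 1 gene was called in the opposite direction without MB replicate 1. With MB replicate 1 as the sole tumour, whose spread is then assumed to equal that of the other groups, the counts were 2455 and 3210, and 5 genes were called in the opposite direction. A fit with the replicate number as a block gave 1777 and 2935. The numbers do not pair the libraries: the correlations of same-numbered libraries' deviations were -0.012, -0.239 and 0.332.

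After seeing the data, a correction for GC content and length was added. It gave 3181 higher and 3136 lower of 14446 genes, against 2019 and 3000 without it. Higher calls thus became more common over all genes, so list counts under this correction are not read against 14%. With it, 11 of 32 Polycomb, 7 of 11 Myc network, 9 of 20 Notch and 7 of 18 Shh transducer genes were higher. The mean chromosome 6 median of the tumours moved from 0.44 to 0.47. That median was 0.42 to 0.45 with 1 library left out and 0.45 over expressed genes with each library centred. Of 2189 values for 150 genes under the alternatives, 2118 kept their direction and side of the threshold, 53 lost the call, 5 gained it and 13 reversed, none of them called in the reversed direction. Ptch1 was at -0.10 in the transcript table, from -0.073 to 0.27 with 1 library left out (below 0 without MB replicate 2 or 3 or P7 replicate 2, at -0.05, -0.073 and -0.03), and at -0.51 with MB replicate 1 as the sole tumour. Tmem119 ranged from -0.33 to 0.29 with 1 library left out (0.02, 0.18 and 0.29 without MB replicates 2 and 3 and P7 replicate 1), and was at 0.30 with the GC correction and 0.43 with MB replicate 1 alone. With that tumour alone Gas1 was at -0.37, Trp53 at -0.17 and P2ry12 at 0.73. When the 6 libraries were fitted alone, the calls of Phc1, Pdgfra, Ccnd2, Trp53, Mxd1, Gas1 and Smo were also lost (FDR 0.0727 to 0.118). The cause of these differences was not tested. How many changes near 2-fold were missed in these data was not measured. The simulation changed 200 genes, far fewer than the 5019 called here, so its recovered shares do not carry over.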
